A study of Mus musculus with 4 samples.

Results

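Tff2, Gkn2, Tspan8, Apoa1, Krtdap, Stard10, Ffar4, Prrx2, Itih2 and Lgals2 were followed through the tumour cells of mouse malignant ascites. They are 10 of the 29835 genes listed in the 4 libraries. The 10 were selected on measured values of these same libraries, that is on treatment contrasts and on the tumour cells that stood out with anti-PD-1, so their levels below are a description and were not tested. Gkn2 and Apoa1 showed the widest contrast: Gkn2 had 24105 UMIs (unique molecular identifiers, which count captured transcripts) in anti-PD-1 tumour cells and 3 to 6 in the tumour cells of each other library. Within the anti-PD-1 library all 10 genes were at least 2-fold higher in tumour cells with 3 or more Cd24a UMIs than in the rest. Of the 12912 genes compared there, 4.62% were that much higher and 12.2% that much lower.

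The mice were C57BL/6 animals carrying ID8-Trp53-/- cells, mouse ovarian surface epithelial cells from which Trp53 was deleted, injected into the peritoneum 7 days before dosing began. Control mice received DMSO with an IgG2a isotype antibody, and BTYNB mice received BTYNB, an inhibitor of the RNA-binding protein IGF2BP1, with the isotype antibody. Anti-PD-1 mice received DMSO with a PD-1 blocking antibody, and combination mice received BTYNB with that antibody. The labels give 50 mg/kg of BTYNB and 100 ng of antibody per dose, amounts that differ from those in the methods of the study, and dosing went on until about 3 mL of ascites had formed. Animals of a group were pooled before capture, so each group is 1 library, the spread between animals cannot be seen, and treatment cannot be told apart from library. All intervals below are 95% intervals that cover counting error only. In pooled levels, fewer cells that express a gene and less RNA per cell cannot be told apart, so shares of cells are given as well.

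Tff2 encodes a trefoil peptide and Gkn2 a gastrokine, both secreted with the mucus of the stomach. Tspan8 is a tetraspanin of epithelial surfaces, Lgals2 a galectin that binds beta-galactosides, and Krtdap a secreted protein of differentiating keratinocytes. Apoa1 is the main protein of high-density lipoprotein and is made in liver and intestine, Itih2 is a heavy chain of the inter-alpha-trypsin inhibitors of plasma, and Stard10 carries phospholipids between membranes. Ffar4 is a receptor for long-chain fatty acids and Prrx2 a homeobox transcription factor of mesenchyme. Cd24a encodes a small, heavily glycosylated surface protein of epithelial and immune cells.

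The promoters of the 2 genes with the widest contrast, Gkn2 and Apoa1, and of Krtdap, which went with them in single cells, are shown from 250 bases before to 50 bases after the transcript start, 5′ to 3′ on the gene's strand, from RefSeq on GRCm38.p6. The deposited counts were made on GRCm39, and the coordinates here are those of GRCm38.p6 only. Capitals mark matches on either strand to 5 strings. The string TATAAA lies near many start sites, ACGTG is the core of the sites of hypoxia-inducible factors and AGATAA resembles the sites of zinc-finger factors of gut and blood. Many homeodomain factors recognise TAATTA, whereas the Fos and Jun proteins recognise TGACTCA. They lie at chr6:87373115-87373414 (Gkn2, plus strand), chr9:46228380-46228679 (Apoa1, plus strand) and chr7:30787655-30787954 (Krtdap, plus strand).
Gkn2: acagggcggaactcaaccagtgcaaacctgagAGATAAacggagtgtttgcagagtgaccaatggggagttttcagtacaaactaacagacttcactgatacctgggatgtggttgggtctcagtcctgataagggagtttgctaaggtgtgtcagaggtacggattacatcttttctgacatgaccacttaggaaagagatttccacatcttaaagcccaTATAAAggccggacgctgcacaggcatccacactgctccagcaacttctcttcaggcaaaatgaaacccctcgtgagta
Apoa1: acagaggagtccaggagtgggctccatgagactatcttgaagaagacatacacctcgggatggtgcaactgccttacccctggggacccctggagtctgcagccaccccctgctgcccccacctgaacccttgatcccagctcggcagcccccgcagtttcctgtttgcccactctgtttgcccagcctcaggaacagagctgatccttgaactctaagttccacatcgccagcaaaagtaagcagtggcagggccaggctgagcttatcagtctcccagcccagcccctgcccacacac
Krtdap: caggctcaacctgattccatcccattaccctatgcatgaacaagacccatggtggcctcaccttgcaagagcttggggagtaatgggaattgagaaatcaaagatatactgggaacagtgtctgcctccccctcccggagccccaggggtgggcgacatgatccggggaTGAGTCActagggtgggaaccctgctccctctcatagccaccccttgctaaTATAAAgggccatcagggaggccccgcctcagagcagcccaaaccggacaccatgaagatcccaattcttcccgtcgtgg
Gkn2 and Krtdap each held TATAAA on the gene's own strand, beginning 29 and 30 bases before the start, and 13.6% of the 32851 promoters in the table held it somewhere. Krtdap also held TGACTCA on the opposite strand, which 5.2% of all promoters held, and Gkn2 held AGATAA, which 11.2% held. Of the 9 members with an entry (Tff2 had none), Itih2 held TAATTA and an overlapping AGATAA on the opposite strand as well as TGACTCA, Lgals2 held AGATAA and Stard10 held ACGTG. Over all promoters 5.29% held TAATTA while 19.6% held ACGTG. Apoa1, Tspan8, Ffar4 and Prrx2 held none of the 5 strings in this window. No string was shared by all 9, and a match or its lack says nothing here of a factor's binding.

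Tumour cells were taken as cells with at least 5 UMIs of Krt7, Krt8, Krt18, Krt19 and Wt1 together and no Ptprc UMI, which gave 26012 of 46342 deposited cells. The gate thus fixed 5 of the 10 ovarian surface and mesothelial markers used to check it. Control gave 7114 of them, BTYNB 3606, anti-PD-1 10923 and both agents 4369, with medians of 7160 to 15221 UMIs per cell. The 10 markers summed to 2855.6 to 3552.0 CPM in these cells and to 120.7 to 383.6 in myeloid cells, and hepatocyte markers, which bear on Apoa1 and Itih2, summed to at most 1.08 CPM. Here CPM is a gene's UMIs per 1000000 UMIs of the cells compared. At most 4 cell barcodes were shared by any 2 libraries. Cd24a-high cells (3 or more Cd24a UMIs) were 18.5% of tumour cells with anti-PD-1 (interval 17.8 to 19.3), 4.19% in control, 4.1% with BTYNB and 3.41% with the combination. They held more UMIs than Cd24a-low cells in every library, with medians of 9323.5 against 6685 in anti-PD-1 and 14000.5 against 9603 in control. Levels are therefore given in CPM, and shares of cells after thinning each cell to 3500 UMIs, which left out 574 BTYNB tumour cells.

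The mucus genes stood at very different levels in the 4 libraries. Tff2 was at 4.11 CPM in control tumour cells, 1.02 with BTYNB, 13.4 with anti-PD-1 and 2.22 with both agents. The intervals of the 4 values did not overlap, and anti-PD-1 was highest and BTYNB lowest. Gkn2 was at 0.080 CPM in control, 0.052 with BTYNB, 292.3 with anti-PD-1 and 0.090 with both agents. Gkn2 was thus near the limit of detection in the 3 libraries other than anti-PD-1, and those 3 did not differ beyond their intervals.

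The plasma and lipid genes did not share one pattern. Apoa1 was at 3.25 CPM in control, 2.09 with BTYNB, 382.7 with anti-PD-1 and 2.19 with both agents, and the intervals of the 2 BTYNB-treated libraries overlapped. Itih2 was at 8.60 CPM in control, 2.21 with BTYNB, 8.49 with anti-PD-1 and 2.54 with both agents. For Itih2 the intervals of the 2 libraries without BTYNB overlapped, as did those of the 2 with it, and the pairs lay apart. Stard10 stood at 60.8 CPM in control, 22.9 with BTYNB, 76.3 with anti-PD-1 and 24.3 with both agents. Ffar4 stood at 25.0 CPM in control, 9.35 with BTYNB, 46.7 with anti-PD-1 and 9.51 with both agents. Both had anti-PD-1 highest, control next and the 2 BTYNB-treated libraries lowest, where their intervals overlapped.

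Prrx2, the homeobox factor, was at 6.36 CPM in control, 2.02 with BTYNB, 16.8 with anti-PD-1 and 2.33 with both agents, the order of Stard10 and Ffar4, again with overlapping intervals where BTYNB was given. The surface and epithelial genes differed from these. Tspan8 was at 463.8 CPM in control, 390.7 with BTYNB, 669.4 with anti-PD-1 and 424.9 with both agents. Krtdap was at 74.0 CPM in control, 102.3 with BTYNB, 326.3 with anti-PD-1 and 145.6 with both agents. Lgals2 was at 194.5 CPM in control, 224.9 with BTYNB, 413.6 with anti-PD-1 and 245.0 with both agents. Control was the lowest library for Krtdap and Lgals2, anti-PD-1 was the highest for all 3 genes, and no 2 intervals of 1 gene overlapped.

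**Figure D1:**
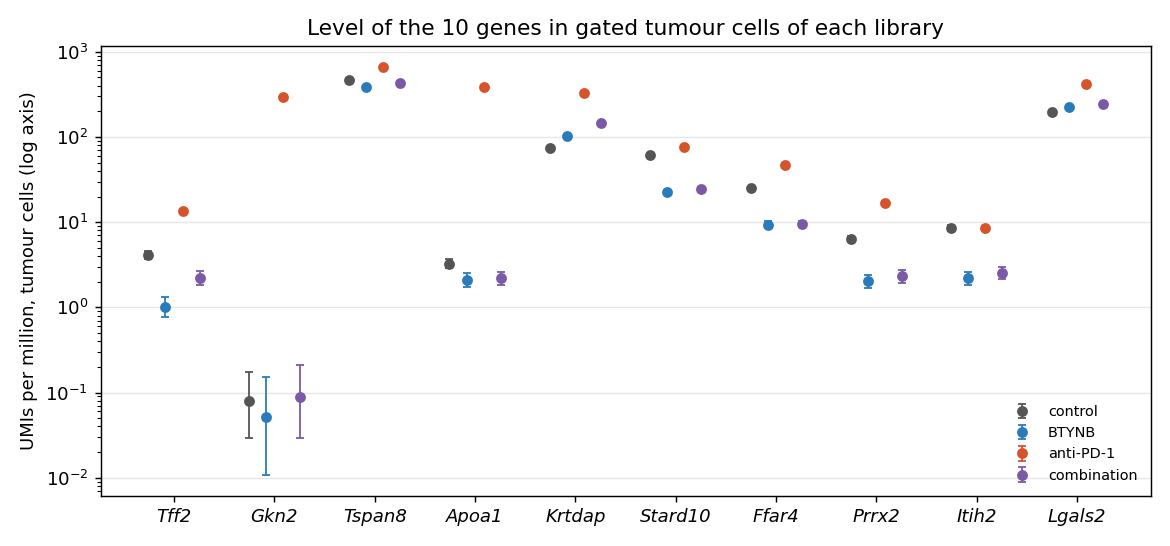
CPM (log axis) of the 10 genes in gated tumour cells, with 1 point per library and bars for the 95% Poisson interval. Anti-PD-1 is the highest point for 9 genes, with Gkn2 at 292.3 against at most 0.090 elsewhere, and for Itih2 the intervals of control (8.60) and anti-PD-1 (8.49) overlap.

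In anti-PD-1 against control, 6 of the 10 genes were at least 2-fold higher on the log2(CPM + 1) scale, beside 2.64% of the 13176 genes compared, and none was 2-fold lower, beside 0.395%. All 10 passed the minimum of 100 UMIs in the tumour cells of at least 1 library, Gkn2 through the anti-PD-1 library alone. By UMIs, the ratio was 3652.6-fold for Gkn2 (interval 1677.9 to 9954.0), resting on 6 control UMIs, and 118-fold for Apoa1 (104 to 134). Krtdap was 4.41-fold, Tff2 3.25-fold, Prrx2 2.64-fold and Lgals2 2.13-fold higher. Ffar4 (1.86-fold), Tspan8 (1.44-fold) and Stard10 (1.26-fold) were higher by less than 2-fold, and Itih2 was at 0.987-fold with an interval of 0.885 to 1.1. The median of the 10 log2 ratios was 1.18, beside -0.065 over all genes compared. These ratios helped to choose the genes, so nothing is read from the counts.

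With BTYNB against control, 5 genes were at least 2-fold lower, beside 0.584% of all genes, and none was 2-fold higher, beside 0.357%. These were the genes the selection had taken as lowest with BTYNB: Tff2 at 0.248-fold, Itih2 at 0.257-fold, Prrx2 at 0.318-fold, Ffar4 at 0.374-fold and Stard10 at 0.376-fold. Apoa1 was at 0.642-fold and Tspan8 at 0.842-fold, while Krtdap was 1.38-fold and Lgals2 1.16-fold higher. Gkn2 had 3 UMIs with BTYNB and 6 in control. In Cd24a-low cells alone these 5 were again past 2-fold, beside 0.63% of all genes, with Tff2 at 0.255-fold and Itih2 at 0.262-fold. Only Stard10 was still past 2-fold when 10 CPM in place of 1 was added before the ratio, beside 0.0683% of all genes lower. The other 4 stand at low levels.

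With the combination against anti-PD-1, 8 genes were at least 2-fold lower, beside 2.4% of all genes, and none was 2-fold higher, beside 0.6%. Gkn2 had 5 UMIs, a level 3262.6-fold below anti-PD-1 (the inverse ratio was 0.000307, interval 9.95e-05 to 0.000715), and Apoa1 was 175-fold lower. Prrx2 was 7.20-fold, Tff2 6.01-fold, Ffar4 4.90-fold, Itih2 3.34-fold, Stard10 3.14-fold and Krtdap 2.24-fold lower. Lgals2 (1.69-fold lower) and Tspan8 (1.58-fold lower) were short of 2-fold. This contrast and that of anti-PD-1 against control share the anti-PD-1 library, so their ratios are not independent of each other.

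With the combination against BTYNB, none of the 10 passed 2-fold in either direction, beside 0.106% of all genes higher and 0.0531% lower. Tff2 was 2.18-fold higher by its UMIs (124 against 59, interval 1.59 to 3.02), which the added 1 CPM brought to 0.67 on the log2 scale. Krtdap was 1.42-fold higher, and the other 8 lay between 1.02-fold and 1.73-fold, the latter for Gkn2 on 5 and 3 UMIs. The 6 genes Gkn2, Apoa1, Stard10, Ffar4, Prrx2 and Itih2 had intervals that included no change.

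Within the anti-PD-1 library, all 10 genes were at least 2-fold higher in the 2024 Cd24a-high than in the 8899 Cd24a-low tumour cells. Of the 12912 genes compared, 4.62% were that much higher and 12.2% lower. Apoa1 stood at 1355.3 CPM in Cd24a-high and 87.2 in Cd24a-low cells, 15.5-fold apart, and Gkn2 at 1032.0 and 67.5, 15.3-fold apart. Cd24a-high cells, 18.5% of the cells, held 82.5% of the Apoa1 and 82.3% of the Gkn2 UMIs, and the share was lowest for Lgals2 (44.5%) and Tspan8 (42.7%). Tff2 was at 41.1 and 4.93 CPM, Prrx2 at 48.3 and 7.19, and Ffar4 at 125.7 and 22.7. These 3 were 8.33-fold, 6.72-fold and 5.55-fold higher in the Cd24a-high cells. Krtdap (826.6 and 174.3), Stard10 (186.7 and 42.8) and Itih2 (19.1 and 5.26) were 4.74-fold, 4.36-fold and 3.63-fold higher. Lgals2 (789.1 and 299.5) and Tspan8 (1226.0 and 500.3) were 2.63-fold and 2.45-fold higher, the smallest ratios of the 10. The genes were partly chosen as leaders of these cells, so this is a description.

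The Cd24a-high cells of the other 3 libraries, taken at the same cut-off, did not carry the set. The class was unlike between libraries: Cd24a stood at 697.1 CPM in it with anti-PD-1, 264.2 in control, 158 with BTYNB and 219.7 with the combination. Its median depth was 9323.5 UMIs with anti-PD-1, 14000.5 in control, 28503 with BTYNB and 18012 with the combination. In control, 0 of the 9 genes past the minimum of 100 UMIs were 2-fold higher, beside 0.565% of all genes, and 2 were lower, beside 1.68%. Tff2 had 2 UMIs in Cd24a-high and 306 in Cd24a-low control cells (0.107-fold, interval 0.0129 to 0.391), and Itih2 had 8 and 637 (0.206-fold, interval 0.0886 to 0.409). Stard10 was at 0.639-fold and Prrx2 at 0.606-fold in control, whereas Lgals2 was 1.89-fold and Krtdap 1.60-fold higher. Apoa1 was at 1.87-fold in control on 25 and 219 UMIs. Thus 4 genes, Tff2, Itih2, Stard10 and Prrx2, leaned away from Cd24a in control and towards it with anti-PD-1. Each is a single library, so these differences were not tested.

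With BTYNB, 2 of 8 genes were 2-fold higher in Cd24a-high cells, beside 0.564%, and 1 was lower, beside 2.3%. Krtdap (2.33-fold) and Ffar4 (2.36-fold) were the higher ones and Itih2 (2 and 126 UMIs, 0.19-fold, interval 0.0228 to 0.702) the lower one. With the combination, 2 of 9 were higher, beside 0.726%, and 1 was lower, beside 3.1%. Krtdap (2.33-fold) and Ffar4 (2.57-fold) were again the higher ones. Tff2 had no UMI in 149 Cd24a-high cells and 124 UMIs in the Cd24a-low ones (ratio 0.445 with 3 counts in place of 0, exact upper limit 0.556). Apoa1 was 2.37-fold and 2.39-fold higher by UMIs in these libraries, on 20 and 14 UMIs, but short of 2-fold once 1 CPM was added. Only 148 BTYNB and 149 combination cells were Cd24a-high, which limits these ratios. The calls moved with the Cd24a cut-off in the combination, with 5 genes past 2-fold at 2 or at 5 UMIs. Over all genes 0.506% were higher and 1.73% lower at 2 UMIs, and 1.57% and 6.54% at 5. Without the deepest 5% of cells, Apoa1 was the 1 gene past 2-fold with BTYNB, beside 0.792% of all genes higher and 3% lower.

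**Figure D2:**
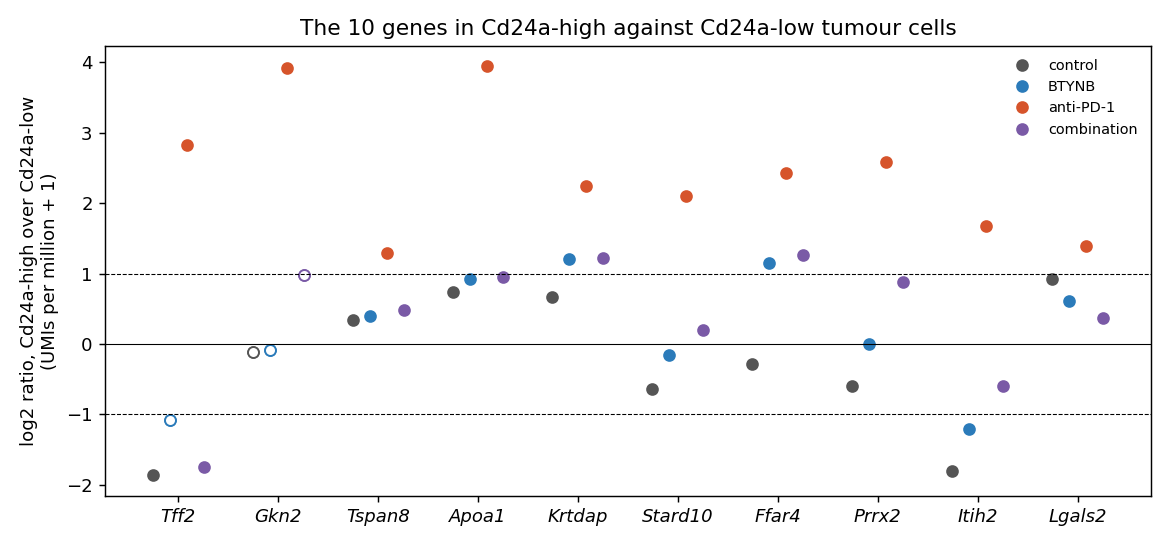
Log2 ratio of CPM + 1 between Cd24a-high and Cd24a-low tumour cells for the 10 genes, with 1 point per library, open where the gene had under 100 UMIs in that library and dashed lines at 2-fold. Every anti-PD-1 point lies above the upper dashed line, and Tff2 and Itih2 lie below 0 in each of the other libraries.

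The levels followed the number of Cd24a UMIs in anti-PD-1 tumour cells. In cells with 0, 1 and 2 Cd24a UMIs, Gkn2 was at 15.8, 157.8 and 401.3 CPM and Apoa1 at 26.8, 204.1 and 454.0. In cells with 3 and 4 they reached 705.4 and 824.4 for Gkn2 and 983.8 and 1175.2 for Apoa1. Both therefore differed already between cells with 0 and 1 Cd24a UMI, and the cut-off at 3 lies on a gradient. At the cut-off itself, cells with 2 and with 3 Cd24a UMIs had Tff2 at 26.9 and 36.6, Krtdap at 511.7 and 685.8, Stard10 at 101.8 and 155.8 and Prrx2 at 27.3 and 38.6 CPM. The same pair of bins had Ffar4 at 59.7 and 98.8, Itih2 at 12.5 and 17.6, Lgals2 at 474.1 and 712.6 and Tspan8 at 788.0 and 1046.6 CPM. Of the 10, Tff2, Prrx2 and Itih2 had overlapping intervals across the cut-off.

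Not every gene kept climbing. From cells with 5 to 9 Cd24a UMIs to the 367 cells with 10 or more, Tff2 went from 52.4 to 21.6 CPM, Krtdap from 925.3 to 734.2, Lgals2 from 857.6 to 674.0 and Itih2 from 22.2 to 15.1. Gkn2 went from 1198.0 to 1097.1. The intervals of the 2 bins did not overlap for Tff2, Krtdap, Lgals2 and Gkn2. Apoa1 (1453.9 to 1587.1) and Tspan8 (1277.3 to 1348.0) were higher in the last bin, as were Ffar4 (132.2 to 150.4) and Prrx2 (48.8 to 59.5) within overlapping intervals, while Stard10 was at 197.6 and 201.6. In control, Itih2 went the other way, with 10.3 CPM in cells without a Cd24a UMI and 3.42 in cells with 1, and Tff2 went from 5.07 to 0.507.

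**Figure D3:**
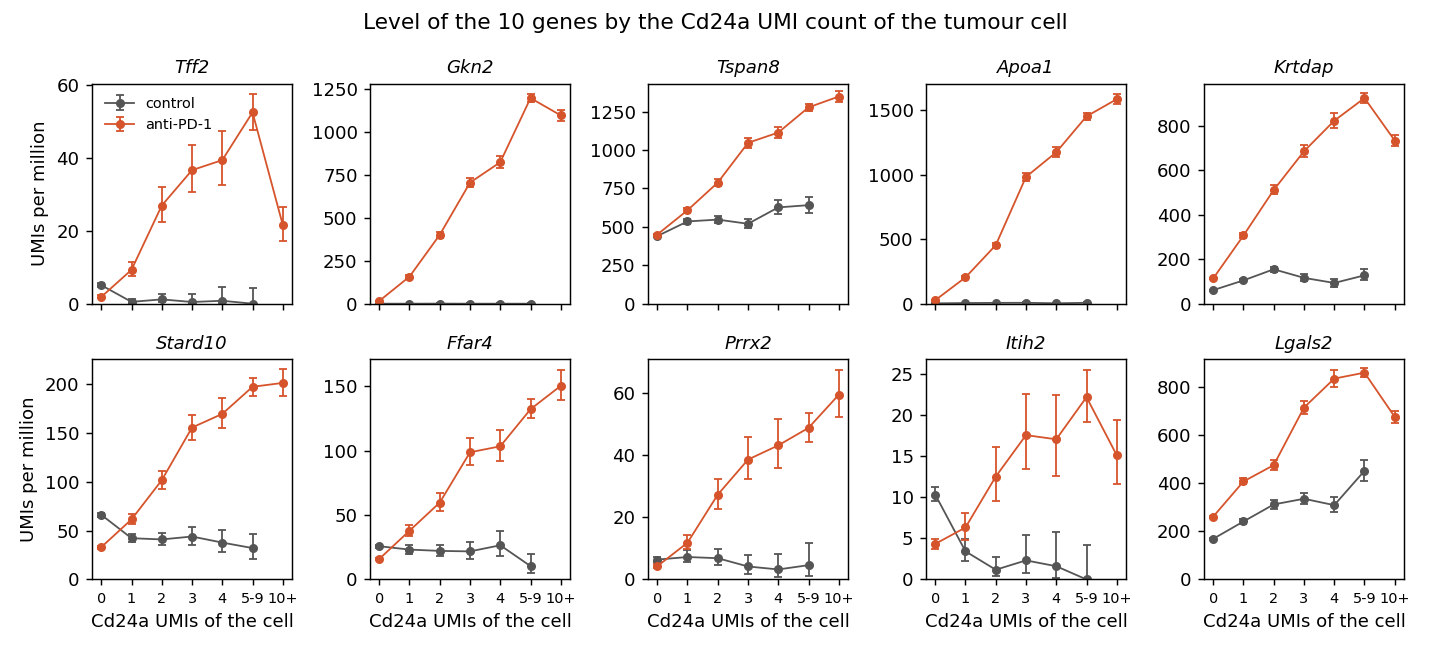
CPM of each gene in tumour cells grouped by their Cd24a UMI count, for control and anti-PD-1, with 95% Poisson intervals and groups under 20 cells left out. In anti-PD-1 every gene is higher at 5 to 9 Cd24a UMIs than at 0, and Tff2, Krtdap and Lgals2 are lower again at 10 or more.

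Cells outside the Cd24a-high class carried part of the anti-PD-1 levels. In Cd24a-low cells alone, 3 genes were 2-fold higher with anti-PD-1 than in control, beside 1.28% of all genes: Gkn2 (796-fold), Apoa1 (28.2-fold) and Krtdap (2.44-fold). Lgals2 was 1.62-fold higher there, while Tff2 (1.14-fold), Prrx2 (1.11-fold) and Tspan8 (1.10-fold) were close to control. Stard10 (0.689-fold), Itih2 (0.584-fold) and Ffar4 (0.896-fold) were lower with anti-PD-1. In cells with no Cd24a UMI, Tff2 was at 5.07 CPM in control and 1.85 with anti-PD-1, Itih2 at 10.3 and 4.32, Stard10 at 66.3 and 33.1 and Prrx2 at 6.39 and 4.24. In Cd24a-high cells the 2 libraries lay further apart: all 10 genes were 2-fold higher with anti-PD-1, beside 7.05% of all genes. Cd24a too was higher in this class with anti-PD-1, at 697.1 CPM against 264.2 in control. Apoa1 was 233-fold, Prrx2 12.2-fold and Itih2 10.3-fold higher there, the last on 367 and 8 UMIs (interval 5.16 to 24), and Gkn2 had 19833 UMIs against none in control. Set against 3 counts, Gkn2 was at least 1481.6-fold higher, and the exact lower limit of the ratio was 1204.8. The direction of the contrast thus depended on the Cd24a class for Itih2, Stard10 and Ffar4, and on the absence of Cd24a for Tff2 and Prrx2. In the combination against anti-PD-1, 4 genes were past 2-fold in Cd24a-low cells, beside 1.01% of all genes, namely Gkn2, Apoa1, Ffar4 and Prrx2.

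Few cells held Tff2 in any library. After thinning, Tff2 was seen in 1.11% of control tumour cells, 0.33% with BTYNB, 2.03% with anti-PD-1 and 0.32% with the combination, and 1 anti-PD-1 cell held 29 of its UMIs. Gkn2 was seen in 15.3% of anti-PD-1 cells (interval 14.6 to 16) and in 1 cell of each other library. Apoa1 was seen in 22.6% of anti-PD-1 cells and in 0.801% to 0.998% of the others. For both, 1 library held nearly all the positive cells. Without thinning the Gkn2 share was 18.3% in anti-PD-1 and at most 0.0916% elsewhere, and the Apoa1 share was 27.6% and at most 2.98%. In myeloid cells of anti-PD-1, which should lack them, thinned shares were 1.59% for Gkn2 and 2.12% for Apoa1, and 0 of 378 for Tff2 (upper limit 0.971%). In the order of control, BTYNB, anti-PD-1 and both agents, Krtdap was seen in 15.3%, 18.6%, 34.6% and 24.3% of cells and Lgals2 in 37.5%, 43.6%, 51.2% and 46.2%. Stard10 was seen in 16.7%, 7.06%, 18.1% and 7.42%, and Itih2 in 2.68%, 0.858%, 2.59% and 0.801%. The shares of Stard10 and Itih2 were lowest where BTYNB was given, those of Krtdap and Lgals2 in control. Tspan8 was seen in 67.1% to 78.5% of cells in every library, Ffar4 in 1.98% to 11.1% and Prrx2 in 0.549% to 4.44%.

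The difference lay also in how many of the genes met in 1 cell. Among thinned tumour cells, 34.9% held 3 or more of the 10 genes with anti-PD-1 (interval 34 to 35.8), beside 15.5% in control, 11.1% with BTYNB and 15.4% with the combination. Without thinning these shares were 52.8%, 49.9%, 44% and 49.7%, closer together, and the median depth was 7160 UMIs in anti-PD-1 and 9783 to 15221 in the others. At 5 or more genes the shares were 14.6% with anti-PD-1, 0.141% in control and 0.0687% with the combination. None of 3032 BTYNB cells reached it (upper limit 0.122%). With anti-PD-1, 86.7% of Cd24a-high and 23.1% of Cd24a-low cells held 3 or more, and 408 cells held 7 or more. In control, 25.8% of Cd24a-high and 15% of Cd24a-low cells held 3 or more. Myeloid cells, the background, held 3 or more in 1.06% of 378 anti-PD-1 cells, 0.347% of 288 control cells, 0.0492% of 2032 BTYNB cells and 0.0797% of 1254 combination cells.

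**Figure D4:**
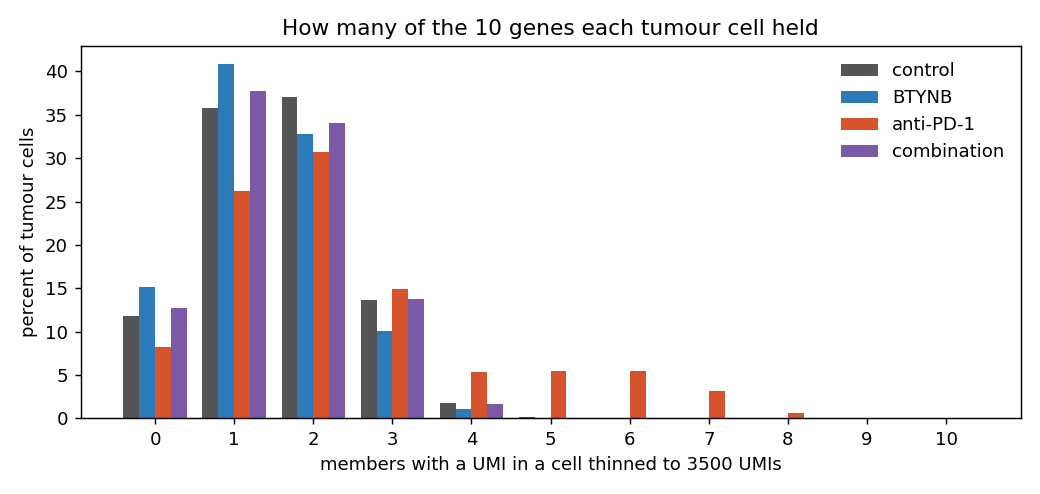
Percent of tumour cells that held 0 to 10 of the genes after each cell was thinned to 3500 UMIs, with 1 bar per library. The bars at 5 and more are almost all anti-PD-1 (14.6% of its cells), and the other 3 libraries end at 4 or 5 genes.

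Gkn2 and Apoa1 shared most of their cells. In thinned anti-PD-1 tumour cells, 1435 held both, 3.8 times the number that independent detection would give, and 86% of the Gkn2 cells held Apoa1 while 11.2% of the cells without Gkn2 did. Tff2 was rarer but lay within the same cells: 81.1% of the 222 Tff2 cells held Gkn2, 5.31 times the independent number, and 83.3% held Krtdap. Cd24a-high cells were richer in every member, so the pairs were counted inside that class too. There Tff2 with Gkn2 was at 1.69 times, Tff2 with Lgals2 at 1.53, Gkn2 with Lgals2 at 1.36 and Gkn2 with Apoa1 at 1.18. Itih2 stood apart there, at 0.617 times with Gkn2 and 0.594 times with Lgals2, and Prrx2 with Tff2 was at 0.538 times on 10 cells. Inside the class Tff2, Gkn2, Krtdap and Lgals2 thus met each other more often than independent detection gives, at 1.12 to 1.69 times, and Itih2 met 3 of them less often. These ratios are descriptions of cells of 1 library.

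In control the pairs fell differently. Tff2 met Stard10 at 2.27 times, Ffar4 at 2.99 times and Prrx2 at 3.86 times the independent number, on 30, 17 and 6 cells, and met Lgals2 at 0.270 times (8 cells) and Krtdap at 0.249 times (3 cells). Itih2 met Stard10 at 1.60 times and Krtdap at 0.309 times. The 5 genes that were 2-fold lower with BTYNB, Tff2, Stard10, Ffar4, Prrx2 and Itih2, met each other at 1.29 to 3.86 times the independent number in every pair in control. The contrast that grouped these 5 uses this same control library, and pairs of genes outside the members were not counted as background. Tff2 was seen in 79, Prrx2 in 140 and Itih2 in 191 of the 7114 thinned control cells, so the pairs among these rest on few cells. Krtdap and Lgals2 met each other at 1.46 times and each met Tff2, Stard10, Prrx2 and Itih2 less often than independent. Tff2 with Lgals2 was at 0.270 times in control and 1.60 times with anti-PD-1. The difference between the libraries was not tested.

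**Figure D5:**
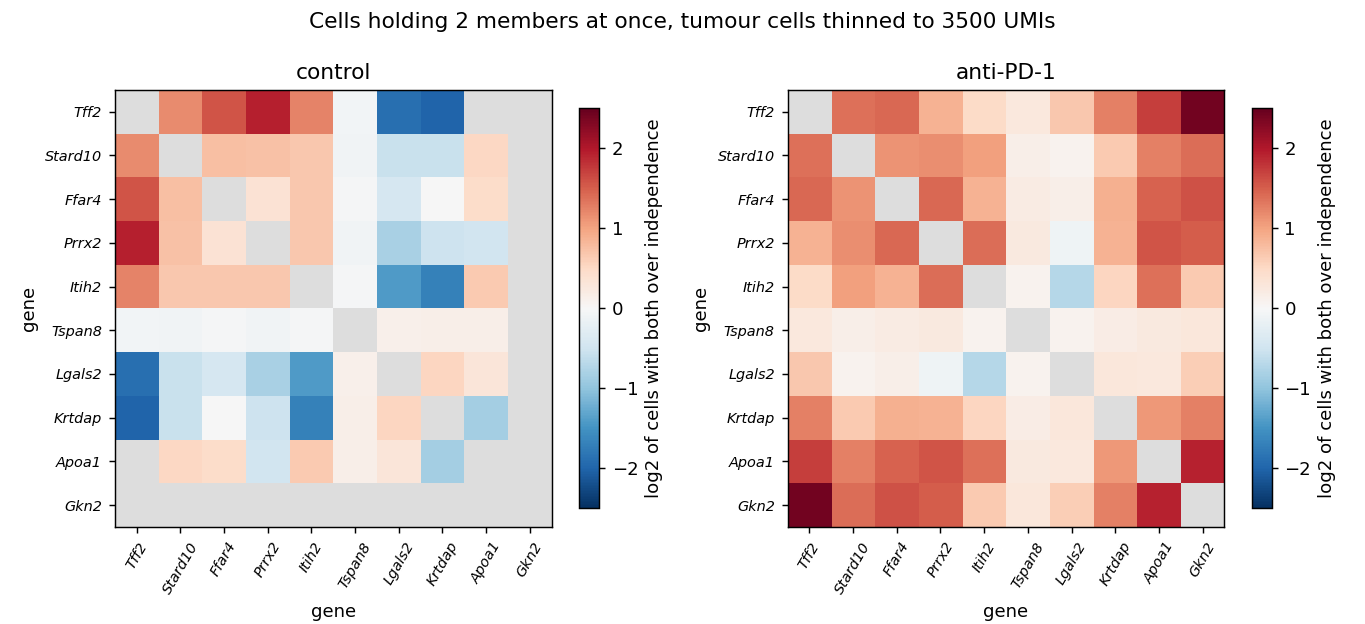
Log2 of the number of thinned tumour cells with both genes over the number that independent detection would give, for each pair in control and in anti-PD-1, grey where that number was under 1, where no cell held both or on the diagonal. In control Tff2 with Lgals2 is blue (0.270 times), and in anti-PD-1 Gkn2 with Tff2 is the darkest red (5.31 times).

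The genes most like the summed members were searched among 7451 genes seen in at least 5% of thinned anti-PD-1 tumour cells, by Pearson correlation of log-transformed UMIs over 10923 cells of 1 library at 1 depth. The 10 highest were Cma1 (0.60), Igfbp4 (0.56), Emp1 (0.54), Pgk1 (0.54), Muc2 (0.53), Selenop (0.53), Anxa4 (0.50), Capg (0.48), Emb (0.47) and Gsta4 (0.47). Cma1 encodes a chymase, Igfbp4 an insulin-like growth factor binding protein and Muc2 the gel-forming mucin of intestine. Cd24a itself, left out of the search with the gate genes, was at 0.56. The 5 lowest were Cald1 (-0.50), an actin-binding protein of contractile cells, and the class II antigen presentation genes H2-Aa (-0.49), H2-Eb1 (-0.45), Cd74 (-0.42) and H2-Ab1 (-0.41). Cma1 was at 3.64 CPM in control, 1.503 with BTYNB, 192.4 with anti-PD-1 and 1.88 with both agents. H2-Aa was at 254.2 CPM in Cd24a-high and 1788.9 in Cd24a-low cells of anti-PD-1, and at 6675.6 in its myeloid cells, and the part of free leukocyte RNA in its tumour level was not tested. In control the 10 highest correlations with the same sum ran from 0.14 to 0.24, led by Crip1, and Cd24a was at 0.073.

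Member by member, Gkn2 and Apoa1 were each other's closest gene (0.73), and Gkn2 was also the closest to Krtdap (0.60), Lgals2 (0.47) and Tff2 (0.31). Apoa1 was the closest to Tspan8 (0.43), Stard10 (0.41) and Ffar4 (0.39). Outside the members, Tff2 was closest to Tff1 (0.29), another trefoil peptide, Gkn2 to Muc2 (0.63), Apoa1, Krtdap and Stard10 to Cma1 (0.63, 0.55 and 0.35), Tspan8 to Igfbp4 (0.42), Ffar4 to Emp1 (0.34) and Lgals2 to Tm4sf5 (0.44). Prrx2 was closest to Pthlh (0.27), the parathyroid hormone-like hormone, and Itih2 to Ank (0.18), a pyrophosphate transporter. Tff2 (2.03% of thinned cells), Prrx2 (4.44%) and Itih2 (2.59%) fell below the 5% minimum, so none of them could be returned as a closest gene. Among the members that could be, none was closest to Prrx2 or Itih2.

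The lists that follow are read against the shares over all genes, 2.64% higher and 0.395% lower with anti-PD-1 than in control, and 4.62% higher and 12.2% lower in Cd24a-high than in Cd24a-low cells of anti-PD-1. The name gastric was set beside 26 genes of stomach mucosa, 22 of them in the files and 9 past the minimum. Of the 9, 6 were at least 2-fold higher with anti-PD-1 than in control and none lower. The median log2 ratio of the 9 was 1.71 beside -0.065 over all genes. Counted within a single library, 9 met the minimum in anti-PD-1 and 6 in control. Some thus entered through the library in which they were high, so nothing is read from the count. The same 6 counted as 2-fold lower with the combination than with anti-PD-1. Tff1 was at 7.98 CPM in control and 66.1 with anti-PD-1, Pgc, a pepsinogen, at 58.0 and 213.7, and the tight-junction gene Cldn18 at 0.067 and 10.6. Anxa10 (0.280 and 9.99), Vsig1 (14.96 and 36.8) and Gkn1 (0.213 and 2.96) made up the 6. The other 3 were the protease gene Ctse (4.31 and 2.17), the water channel gene Aqp5 (101.4 and 145.2) and the mucin gene Muc1 (1.60 and 1.72). The 6 that were higher with anti-PD-1 were also higher in Cd24a-high cells of anti-PD-1, where Tff1 was at 243.3 and Cldn18 at 39.0 CPM. Ctse (1.25 in Cd24a-high against 2.45 in Cd24a-low cells), Aqp5 (108 against 156.5) and Muc1 (0.989 against 1.94) stood below the Cd24a-low level by less than 2-fold. Other defining stomach genes were hardly seen: the mucin gene Muc5ac had 57 UMIs in anti-PD-1 and 0 elsewhere, and with anti-PD-1 the gland mucin Muc6 had 10, the proton pump Atp4a 46, Sox2 4 and the lipase Lipf 0. Of 6 intestinal genes past the minimum, 4 were 2-fold higher: Muc2 (0.307 CPM in control and 140.6 with anti-PD-1), Phgr1 (0.040 and 17.0), Vil1 (0.907 and 11.3) and Cdh17 (0.040 and 2.98). The other 2, Lgals4 (3.01 and 5.02) and Lgr5 (12.98 and 23.3), were short of 2-fold. Within a single library 6 intestinal genes met the minimum in anti-PD-1 and 2 in control, so this count is not read either. Some genes of stomach and some of intestine were thus higher and others were not, and the set is named here by its genes.

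The same was asked of lists around the members' families and functions, over genes past the minimum. Of 3 apolipoprotein and plasma protein genes, Apoc1 (2.08 CPM in control and 12.9 with anti-PD-1) and Apoe (10.1 and 24.6) were 2-fold higher, and in Cd24a-high cells Apoc1 was higher and Clu lower (323.5 against 875.7 in Cd24a-low). Of 6 cornified envelope and keratinocyte genes beside Krtdap, 0 were 2-fold higher, and Dmkn (137.6 against 579.1) and Krt14 (3.49 against 17.2) were lower in Cd24a-high cells. Of 27 relatives of the members' families, 3 were 2-fold higher with anti-PD-1, Tff1, Gkn1 and Lgals3 (91.4 and 226.3). In Cd24a-high cells 6 of the 27 relatives were higher (4.62% over all genes), among them Tspan13 (299.0 against 57.7), Tspan1 and Cd9, and 6 were lower (12.2% over all genes), among them Cd81 (167.4 against 526.4) and Lgals1. The galectins therefore differed in direction, Lgals2 and Lgals3 being higher and Lgals1 lower in these cells.

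Of 10 epithelial junction and surface genes, Krt23, a keratin, was higher (3.31 CPM in control and 44.5 with anti-PD-1) and Esrp1, a splicing factor of epithelia, lower (3.08 and 0.740). In Cd24a-high cells, where 9 of the list passed the minimum, Krt23 and Esrp2 were higher, and Lcn2 (0.937 against 9.09) and Spint2 lower. Of 20 glycolysis and hypoxia genes, 4 were higher with anti-PD-1: Ero1a (44.6 and 261.7), Pgk1 (287.5 and 826.2), Pdk1 (13.8 and 34.9) and P4ha1 (35.8 and 75.3). In Cd24a-high cells 6 of the 20 were higher and Car9, a carbonic anhydrase, was lower (5.67 against 22.9). Of 13 stem and progenitor genes, Hmga2, a chromatin protein of embryonic tissue, was higher (22.1 and 166.4) and the receptor gene Kit lower (14.9 and 6.37). In Cd24a-high cells 4 of the 13, Hmga2, Cd44, Nes and Klf5, were higher and Kit lower.

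Of the 10 ovarian surface and mesothelial markers, 7 stood at 10 CPM or more in Cd24a-high and 10 in Cd24a-low cells of anti-PD-1. In the Cd24a-high cells of the other libraries 10 did in control, 10 with BTYNB and 9 with the combination. None of the 10 was at 0 in these classes. With anti-PD-1 they summed to 3819.0 CPM in Cd24a-high and 3470.9 in Cd24a-low cells, gate genes included. The summed levels of some markers of other cells differed between the Cd24a classes as well. With anti-PD-1, all 8 fibroblast markers were seen and summed to 50.9 CPM in Cd24a-high and 356.0 in Cd24a-low cells, beside 409.6 and 368.2 in control. With anti-PD-1, 1 of the 8 stood at 10 CPM or more in Cd24a-high and 4 in Cd24a-low cells. The 6 dendritic cell markers summed to 156 CPM in Cd24a-high and 52.1 in Cd24a-low cells, but only 2 of the 6 stood at 10 CPM or more in either class. The 10 macrophage and monocyte markers summed to 74.4 and 90.4 CPM, and the 10 lymphocyte markers to 32.2 and 35.2, with Ptprc at 0 by the gate. The 6 hepatocyte markers summed to 1.93 and 0.775 CPM, where Apoa1 itself stood at 1355.3 and 87.2, with Cyp3a11 and Ttr at 0 in the Cd24a-high cells. The part of these markers in the members' levels was not tested.

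Leukocytes of the same libraries gave the background of the members. With anti-PD-1, myeloid cells held Gkn2 at 1.63% of the tumour level (interval 0.702 to 3.20), Apoa1 at 2.17%, Krtdap at 4.55%, Tspan8 at 6.92% and Lgals2 at 7.04%. Tff2 had no UMI in them (upper limit 16.4%). Wt1, a gate gene of the tumour cells, was at 21.1%, and Upk3b, a mesothelial gene, at 14.0% there, both above the shares of Gkn2 and Apoa1. Median depths were 4198.5 UMIs in myeloid and 7160 in tumour cells. Relative to the tumour level, Ffar4 stood out where BTYNB was given. In the combination, myeloid cells held it at 111% of the tumour level (interval 88.7 to 137), with 10.54 CPM against 9.51, and with BTYNB at 55.2%. It was at 18.9% in control and 6.36% in anti-PD-1. These percentages also depend on the tumour level of Ffar4, which was 9.35 CPM with BTYNB and 25.0 in control. By count, myeloid cells held 85 Ffar4 UMIs of 16482724 with BTYNB, 8 of 1691095 in control and 101 of 9579986 with the combination. Stard10 in lymphoid cells of BTYNB was at 48.5% of the tumour level (interval 40.4 to 57.9), where Wt1 was at 15.5%. In lymphoid cells of the combination it was at 33.1% on 7 UMIs (13.3 to 68.3), beside 12.9% for Wt1, and in myeloid cells at 10.7% (6.92 to 15.9), beside 9.41%. In lymphoid cells of anti-PD-1 it was at 163% on 4 UMIs (44.4 to 418), beside 113% for Wt1, too few to read. Ffar4 in myeloid cells of both BTYNB-treated libraries, and Stard10 in lymphoid cells of BTYNB, thus stood above the Wt1 background of the same cells, 6.54% and 9.41% in the myeloid cells. So did Stard10 (20.7%, interval 16.2 to 26) and Prrx2 (21% on 7 UMIs, 8.26 to 44.7) in myeloid cells of BTYNB. Myeloid cells held 78 Stard10 UMIs of 16482724 with BTYNB and 17 of 1691095 in control, where the tumour levels were 22.9 and 60.8 CPM. A percentage above that of Wt1 is therefore not read as a higher leukocyte level with BTYNB. Ffar4 in lymphoid cells of the combination was at 60.4% on 5 UMIs (19.5 to 142), beside 12.9% for Wt1.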

How the data were processed

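Single-cell RNA-seq was measured in 4 pooled ascites libraries (BD Rhapsody), 1 per treatment group. The authors deposited whole-number UMI counts per gene and cell, made with the BD Rhapsody pipeline on GRCm39, per the labels and the study's methods. Cells with under 200 genes or over 33% mitochondrial UMIs were left out, 45178 of 46342 remaining, and doublets were treated only by the Ptprc limit in the tumour gate and by an alternative without the deepest 5% of cells, as no doublet caller was run. Counts were summed over cells of a class and scaled to CPM. Ratios used log2(value + 1), and genes needed 100 UMIs in tumour cells of 1 library (in that library for the Cd24a split). Intervals were exact Poisson (levels), exact Clopper-Pearson (shares) and exact binomial (ratios), at 95%. A count of 0 was given the exact limit, and where stated 3 counts also stood in its place. No test was run, since each group is 1 library. Cells were thinned to 3500 UMIs without replacement, and cells below that were left out. Among tumour cells these were 574 of 3606 with BTYNB and 0 in each other library, so thinned BTYNB shares leave out its shallowest tumour cells. The ratio, thinning and correlation steps were tested on simulated data.

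The members and all gene lists were chosen with earlier results of these data known. Genes named beside the members were the 10 highest and 5 lowest correlations, each member's closest gene, and list genes past 2-fold, at most 6 a list; Muc5ac, Muc6, Atp4a, Sox2, Lipf, Ctse, Aqp5, Muc1, Lgals4 and Lgr5 and the leukocyte comparison genes were added after their values were seen. Python 3.11.15, numpy 2.4.6, scipy 1.17.1, pandas 2.3.3 and matplotlib 3.10.9 were used. Alternatives to the cell filter, gate, depth, scaling, pseudocount, Cd24a cut-off and thinning were tried.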

Additional observations from a re-analysis of the deposited data

Results flagged for a closer look

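Members were flagged where 2 effects under the same contrast went opposite ways and neither counting interval held 0. Each effect comes from 1 library a group, and the differences were not tested. In the Cd24a-high against Cd24a-low contrast, Tff2 was at 2.83 on the log2 scale in anti-PD-1 and -1.86 in control, a difference of 4.69, and at -1.74 in the combination, a difference of 4.57. Itih2 was at 1.68 in anti-PD-1, -1.81 in control and -1.21 in BTYNB, differences of 3.49 and 2.90. Prrx2 was at 2.59 and -0.60 in anti-PD-1 and control, a difference of 3.19, and Stard10 at 2.10 and -0.63, a difference of 2.73. In the contrast with BTYNB, Krtdap was at 0.46 against control and -1.16 on top of anti-PD-1, a difference of 1.62, and Lgals2 at 0.21 and -0.75, a difference of 0.96.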

How the results depend on the processing

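All 10 members stayed at least 2-fold higher in Cd24a-high than in Cd24a-low anti-PD-1 cells under every alternative run but a pseudocount of 10 CPM, where Itih2 was at 0.93 on the log2 scale and 9 members remained, and none passed 2-fold between combination and BTYNB under any. Of the comparison counts and shares, 85 values stayed close to those reported and 35 moved. The cause was not tested beyond what each alternative's construction shows. In Cd24a-low cells the count of members past 2-fold went from 6 to 3 in anti-PD-1 against control, beside 1.28% of all genes higher. In the combination against anti-PD-1 it went from 8 to 4, beside 1.01% of all genes lower. In cells without a Cd24a UMI, Gkn2 and Apoa1 were past 2-fold higher with anti-PD-1 than in control, and Tff2 and Itih2 past 2-fold lower. With the combination, Gkn2 (0.0226 CPM against 15.8) and Apoa1 (1.92 against 26.8) were past 2-fold lower than with anti-PD-1 there. The share over all genes is not given for these cells, so nothing is read from how many members passed. In those cells anti-PD-1 against control turned, on the log2 scale, to -1.09 for Tff2 and -0.50 for Prrx2, and that of the combination to anti-PD-1 to 0.36 for Tff2 and 0.031 for Krtdap. A pseudocount of 10 CPM took BTYNB against control from 5 to 1, and the Cd24a split to 9 in anti-PD-1, to 1 in BTYNB and in the combination and to 0 in control. The share of all genes fell as well, from 0.584% to 0.0683% lower in BTYNB against control and from 4.62% to 2.21% higher in the anti-PD-1 split. In the other splits 0.098% (BTYNB), 0.122% (combination) and 0.0636% (control) of all genes were higher. The split in BTYNB (3 as reported) gave 1 without the deepest 5% of cells, 2 with the mean of per-cell CPM and 4 without the minimum of 100 UMIs. In that order, 0.792%, 0.719% and 0.424% of all genes were higher and 3%, 3.69% and 1.3% lower. The split in the combination (3 as reported) gave 5 at a cut-off of 2 or of 5 Cd24a UMIs and 1 with Cd24a counted on thinned UMIs. In that order, 0.506%, 1.57% and 1.75% of all genes were higher and 1.73%, 6.54% and 7.43% lower. The split in control (2 as reported) gave 3 at a cut-off of 2 and 4 at 5 Cd24a UMIs. The shares over all genes are not given for these 2 cut-offs in control. In the combination the share lower was 1.73% at 2 and 6.54% at 5, so nothing is read from the rise in control.

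The share of tumour cells with 3 or more members was, in the order control, BTYNB, anti-PD-1 and both agents, 5.97%, 4.51%, 23.8% and 6.57% when thinned to 2000 UMIs, 25.6%, 19.4%, 46.8% and 24.9% at 5000, and 49.9%, 44%, 52.8% and 49.7% without thinning. With 2 or more members it was 52.4%, 44%, 65.6% and 49.6%. A gate of 10 UMIs gave 16.5% in control and 38.1% in anti-PD-1, and leaving out the deepest 5% of cells gave 33.9% in anti-PD-1. Without the minimum of 100 UMIs, 1.22% of all genes were higher in anti-PD-1 against control and 0.181% lower. No paired analysis was possible because each group is 1 pooled library and no test was run. Low UMI numbers limit Gkn2 outside anti-PD-1 and Tff2 and Itih2 in the small Cd24a-high classes.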
